A study of Mus musculus with 44 samples.

Results

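The genes described here are 9 members of the mouse S100 family: S100a1, S100a3, S100a4, S100a6, S100a10, S100a11, S100a13, S100a14 and S100a16. They were taken as a named list and are 9 of 21887 protein-coding genes read in 44 chromatin libraries of the liver. Antibody-directed Tn5 cutting was used to map 4 histone marks, with 11 libraries each. H3K4me3 sits at active promoters and H3K27ac at both active promoters and active enhancers. H3K4me1 is found mainly at enhancers, and H3K27me3 where Polycomb represses genes. All groups came from Rosa26-LSL-Cas9-EGFP mice, genotype otherwise given as wild type, that had received AAV8-TBG-Cre at 5e11 genome copies. This virus drives Cre from a hepatocyte promoter, so that EGFP marks cells that were hepatocytes at the time of injection. Formalin at 0.1 to 0.15% was used on all groups.

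Hep libraries (n = 2 per mark) were made from hepatocytes of mice kept off the toxin DDC and purified on a Percoll gradient. The other 4 groups were sorted from mice fed 0.1% DDC, which injures the bile ducts, for 8 to 9 weeks. The diet began 1 week after the virus. Early cells (n = 2) were EGFP+ CD24-, intermediate cells (n = 2) EGFP+ CD24+ EPCAM-, and late cells (n = 3) EGFP+ CD24+ EPCAM+. Biliary epithelial cells (BEC, n = 2) were EGFP- EPCAM+ and also came from DDC-fed mice. In any contrast with Hep, stage, diet and the way of purification therefore cannot be told apart. No age is stated. BEC, being EGFP-, are a reference and not a step after late cells, so later libraries below means later in this listing.

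S100 proteins are small calcium-binding proteins of the EF-hand type that mostly work as dimers, inside cells on cytoskeletal and membrane proteins and, once released, on receptors such as Ager and Tlr4. In the liver, S100a8 and S100a9 are best known from neutrophils, while S100a6 and S100a11 are known from epithelia, bile ducts among them. S100a10 is the exception that has lost calcium binding and acts as the partner of annexin A2. H3K4me3 and H3K27ac peaks at a start site are marks that usually accompany transcription, but no RNA was measured in the libraries described here.

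All 9 genes lie on chromosome 3 (mm10), in a pair of blocks. Block 1 runs in promoter order from S100a1 through S100a13, S100a14, S100a16, S100a3 and S100a4 to S100a6, and block 2, 2907602 bp further on, holds S100a11 and S100a10. S100a1 (chr3:90511034-90514330, minus strand) and S100a13 (chr3:90514233-90524581, plus strand) start 105 bp apart and point away from each other. Every promoter peak of one is therefore a promoter peak of the other, and their promoter values are the same measurement, although the counts given here hold both genes. S100a14 lies at chr3:90526849-90528837, S100a16 at chr3:90537254-90543151, S100a3 at chr3:90560356-90602706, S100a4 at chr3:90603770-90606045 and S100a6 at chr3:90612894-90614414. S100a11 lies at chr3:93520496-93526288, and its neighbour S100a10 at chr3:93555117-93564645 has its promoter 34621 bp downstream. No annotated start was at hand for S100a10 and S100a14, so their promoter was set at the gene end with more H3K4me3, without regard to stage.

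The sequence just upstream of each start is shown for S100a11, S100a6 and S100a4, which stand for 3 different courses of the marks, and for the strip between the S100a1 and S100a13 starts, which lay in marked chromatin in all stages. Sequences are from RefSeq (GRCm38.p6), plus strand, 5′ to 3′, and end at the base before the start, with motif matches in capitals. The intervals are chr3:93520246-93520495, chr3:90612644-90612893, chr3:90603520-90603769 and chr3:90514331-90514434.
S100a11: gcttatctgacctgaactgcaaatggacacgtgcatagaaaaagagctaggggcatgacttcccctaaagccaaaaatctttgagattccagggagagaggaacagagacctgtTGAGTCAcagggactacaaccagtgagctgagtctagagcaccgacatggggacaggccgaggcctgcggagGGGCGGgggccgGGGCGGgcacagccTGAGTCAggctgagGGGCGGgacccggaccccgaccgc
S100a6: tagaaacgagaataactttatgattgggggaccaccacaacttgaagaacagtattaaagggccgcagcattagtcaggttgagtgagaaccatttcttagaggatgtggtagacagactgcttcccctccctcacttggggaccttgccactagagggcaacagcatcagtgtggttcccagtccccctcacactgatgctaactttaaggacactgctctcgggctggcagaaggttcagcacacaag
S100a4: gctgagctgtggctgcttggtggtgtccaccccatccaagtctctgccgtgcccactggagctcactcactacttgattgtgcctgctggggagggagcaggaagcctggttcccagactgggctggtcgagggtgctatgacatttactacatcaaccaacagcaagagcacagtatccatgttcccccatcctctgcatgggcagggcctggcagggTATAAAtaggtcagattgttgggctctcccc
S100a1 to S100a13: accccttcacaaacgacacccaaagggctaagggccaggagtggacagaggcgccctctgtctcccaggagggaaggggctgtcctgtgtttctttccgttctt
Capitals mark 3 motifs. The AP-1 site was searched as TGANTCA and the GC box as GGGCGG. The core promoter element near many regulated starts was searched as TATAAA, and a TATA box below means these letters. The TEAD site was searched as well, as GGAATG, on both strands of windows from 250 bases before to 50 bases after a start. No match shown overlaps another.

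S100a11 had 2 AP-1 matches, beginning at positions -136 and -38 from the start, and 3 GC boxes at -64, -52 and -24. Of 21263 promoters in the table, 6.99% held an AP-1 match and 46.2% a GC box. S100a4 had a TATA box at -31, a motif found in 12.6% of promoters. The windows of S100a6, S100a1 and S100a13 held none of the 4 motifs, and TEAD matches, in 13.6% of all promoters, were seen, among the 7 genes with a window, only at the last of the 4 starts of S100a3. The second of the 2 starts of S100a16 had an AP-1 match at -192 and a GC box at -30, and its first start had no match. CpG pairs numbered 15 in the S100a11 window, 14 at S100a13, 11 at S100a1, 6 at S100a6 and 2 at S100a4, against a median of 13 over all promoters. A match of letters is a description of the window and not a bound site.

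The libraries differed in how finely peaks were cut. H3K4me3 libraries held 19402 to 33762 peaks and H3K27ac libraries 23511 to 51807, and read depth is unknown, so no counting error can be attached. Peaks under 100 bp were listed in late 1 for all 4 marks, in intermediate 1 for H3K4me3 and in late 3 for H3K4me1. Cell identity was read at marker promoters within 1000 bp. H3K4me3 peaks stood on 25% of 10 hepatocyte markers in BEC and on 75% in Hep, and on 100% of 10 biliary markers in BEC and on 35% in Hep. Macrophage and neutrophil lists carried no H3K4me3 there in any library, and S100a8 and S100a9 had no H3K4me3 or H3K27ac in any. Other markers did carry peaks within 2500 bp. H3K27ac was at the macrophage markers Cd68 in 6 libraries and Csf1r in 1, and at the neutrophil markers Elane in 3 and Ltf in 1. Elane had H3K4me3 in 1 library, the lymphocyte marker Cd4 in 10, and the endothelial markers Kdr, Tie1 and Clec4g in 3, 2 and 1. Endothelial Vwf and Tie1 had H3K27ac in 7 and 3.  The replicates are separate libraries, and nothing says that they came from separate animals, so p-values measure the spread between these libraries, which may be technical.

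Promoter coverage, meaning the bases covered by peaks within 2500 bp on each side of a start, split the 9 genes into 3 sets. S100a1 with S100a13, S100a10 and S100a16 carried H3K4me3 in all 11 libraries. S100a6, S100a11, S100a3 and S100a14 gained both marks between Hep and BEC, and of these S100a11 had H3K4me3 in 1 Hep library already. S100a4 had no H3K4me3 in any library and H3K27ac in 4. H3K4me3 in all 11 libraries is common, at 45.1% of all promoters, and 36.1% of promoters had it in none.

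**Figure D1:**
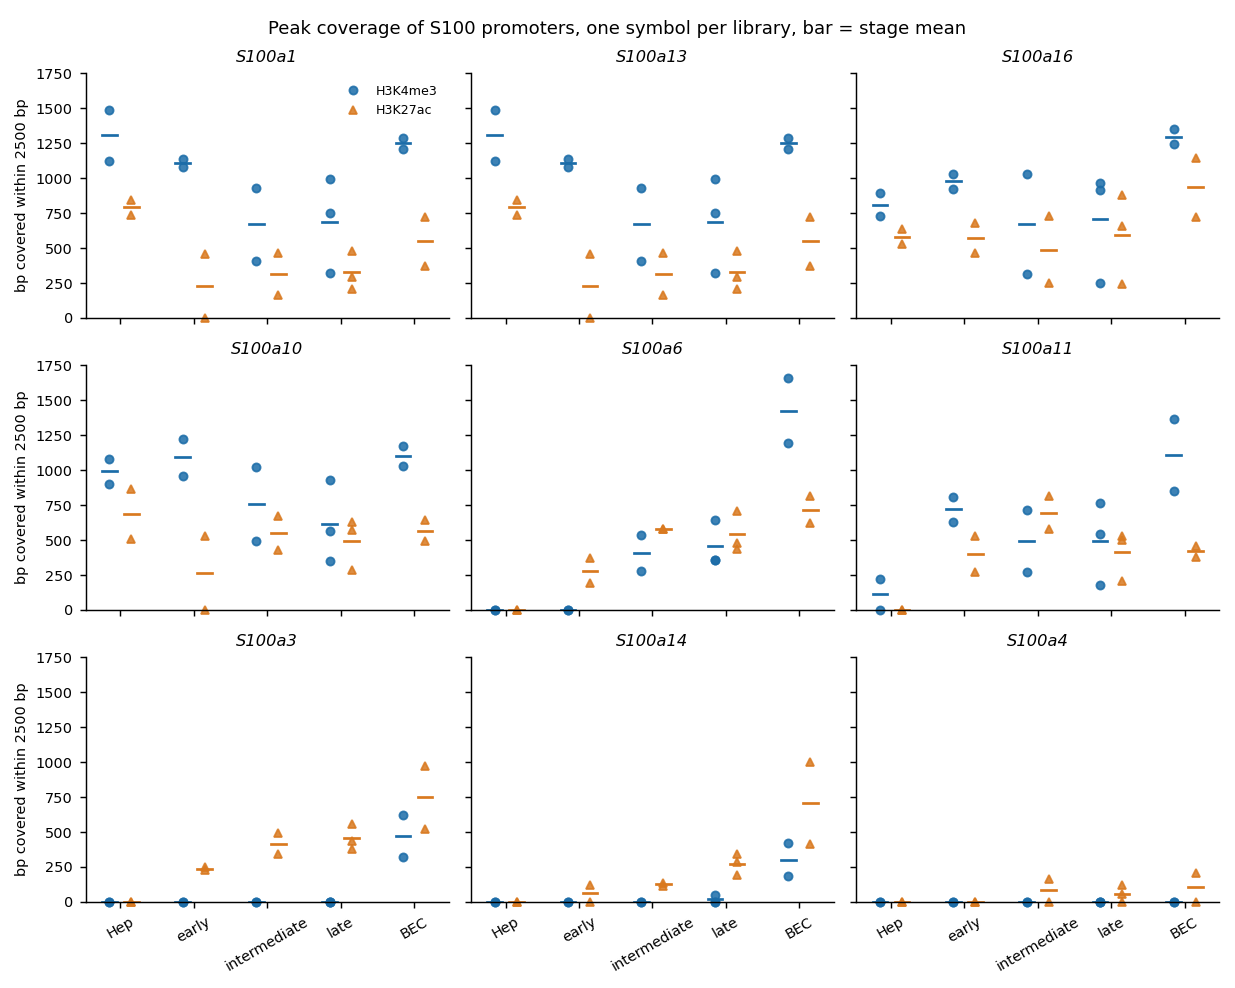
Bases covered by H3K4me3 (circles) and H3K27ac (triangles) peaks within 2500 bp of each promoter (y axis, bp), by stage (x axis), with 1 symbol per library and a bar at the stage mean. S100a1 and S100a13 show the same peaks, S100a6 and S100a3 have H3K27ac but no H3K4me3 in early cells, and S100a4 has no circle above 0.

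S100a6 (calcyclin, a calcium sensor that binds annexins and Cacybp) showed the widest contrast in H3K4me3. Its H3K4me3 covered 0 bp in both Hep and both early libraries, 280 and 538 bp in intermediate, 359, 644 and 359 bp in late, and 1193 and 1658 bp in BEC. Intermediate, late and BEC libraries all lay above every Hep and early library, and both BEC libraries lay above all others. BEC averaged 1426 ± 329 bp and Hep 0 bp (SD, n = 2 each), and the adjusted p of limma, a linear model fitted over all promoters of a mark, was 0.000281. Late cells averaged 454 ± 165 bp (SD, n = 3), with an adjusted p of 0.00413 against Hep and 0.00859 against early (limma). Both late calls were lost when 1 library of the compared stage was left out: p was 0.114 without Hep 1 and 0.102 without Hep 2, and 0.116 without early 1 and 0.166 without early 2 (limma, adjusted).

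H3K27ac came to the S100a6 window one stage sooner. It covered 0 bp in both Hep libraries, 191 and 369 bp in early, 580 and 578 bp in intermediate, 434, 705 and 482 bp in late, and 619 and 814 bp in BEC. Every library after Hep had a peak, and both early libraries lay below all 7 later ones. Limma gave adjusted p-values of 0.00862 for early, 0.00232 for late and 0.00173 for BEC, each against Hep. The early call stood at 0.0556 without Hep 1 and at 0.0587 without Hep 2. Where a gene had no peak in Hep no fold is given, since a ratio to 0 depends on the 100 bp added before the logarithm.

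The early H3K27ac of S100a6 did not lie at its start. It lay in a region past the end of the gene, chr3:90614749-90615453, centred 2206 bp downstream of the start, with 250 and 369 bp in early. The region over the start itself, chr3:90612773-90613227, had no H3K27ac in Hep or early and 251 and 315 bp in intermediate, 244, 343 and 184 bp in late, and 287 and 362 bp in BEC. H3K4me3 followed the start region: chr3:90612809-90613741 had none in Hep or early and was covered by 147 to 771 bp in each of the 7 later libraries. With the window narrowed to 1000 bp the early call of S100a6 was lost (adjusted p = 1, limma), and that of intermediate over early was made (adjusted p = 0.0202).

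S100a3 (a protein best known from hair follicles) also had H3K27ac in early cells, where it had no H3K4me3. Its H3K27ac covered 0 bp in both Hep libraries, 252 and 225 bp in early, 493 and 342 bp in intermediate, 556, 380 and 434 bp in late, and 524 and 971 bp in BEC. Both early libraries lay between Hep and all later libraries, and late overlapped both intermediate and BEC. Against Hep the adjusted p was 0.0112 in early, 0.00301 in late and 0.00173 in BEC (limma), and the early value was 0.0625 without Hep 1 and 0.0684 without Hep 2. H3K4me3 was absent from all 9 libraries other than BEC and covered 619 and 318 bp in BEC. These values are a description, since S100a3 was tested for H3K4me3 and had its start chosen through the BEC libraries alone.

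The S100a3 gene has 4 annotated starts, and the one with most H3K4me3 was used. The early H3K27ac lay 2423 bp downstream of it, at chr3:90586732-90587433, and spanned the second start at 90586952. That region held 428 and 296 bp in early, and H3K4me1 appeared over the same place, chr3:90586768-90587335, in all 9 libraries after Hep and in neither Hep library. A further region at chr3:90585500-90586042, nearer the start used, had H3K27ac from intermediate cells on. BEC H3K4me3 covered that same place with 290 and 318 bp. With a window of 1000 bp the early and late H3K27ac calls of S100a3 were lost (adjusted p of 1 and 0.575, limma).

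**Figure D2:**
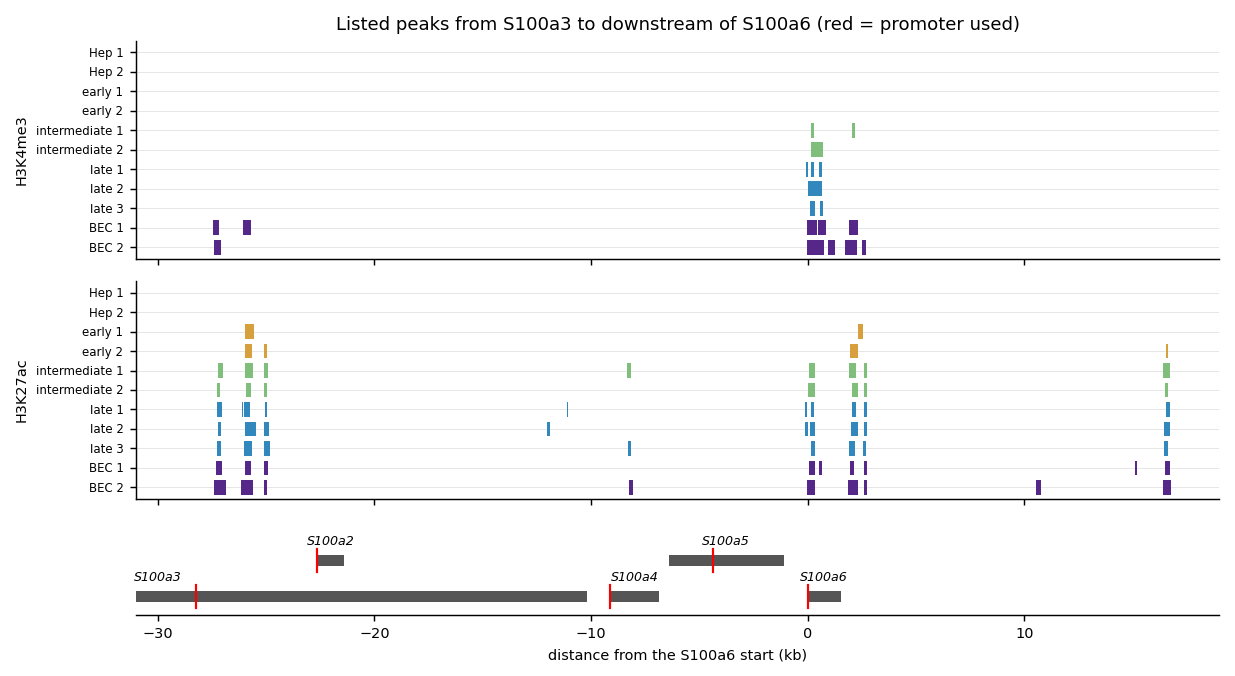
Listed H3K4me3 (upper) and H3K27ac (lower) peaks in each library, to scale, against distance from the S100a6 start (x axis, kb), with the genes in grey and the promoter used in red below. S100a3 begins to the left of the area drawn. Early H3K27ac stands inside S100a3 and just past the end of S100a6, and the S100a6 start is first covered in intermediate libraries.

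S100a11 (a partner of annexin A1 with roles in membrane repair and growth control) gained H3K27ac at its start in early cells. Coverage was 0 bp in both Hep libraries, 527 and 272 bp in early, 814 and 579 bp in intermediate, 210, 497 and 532 bp in late, and 460 and 381 bp in BEC. All 9 libraries after Hep were covered, and both intermediate libraries lay above all the others. Adjusted p-values against Hep were 0.00842 in early, 0.00657 in late and 0.00603 in BEC (limma). Leaving out Hep 1 or Hep 2 moved them to 0.0628 and 0.0684 in early, 0.0657 and 0.065 in late, and 0.0509 and 0.0513 in BEC. With a window of 1000 bp the early call held, at 0.0187, since the region chr3:93520256-93521185 spans the start.

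H3K4me3 at S100a11 covered 0 and 222 bp in Hep, 627 and 811 bp in early, 269 and 715 bp in intermediate, 176, 766 and 541 bp in late, and 1362 and 852 bp in BEC. Both early and both BEC libraries lay above both Hep libraries. BEC averaged 1107 ± 361 bp and Hep 111 ± 157 bp (SD, n = 2 each), a log2 change of 2.72 ± 0.66 (SE) in bp plus 100, with an adjusted p of 0.0106 (limma). This call was lost without Hep 1 (0.307), without BEC 1 (0.206) and without BEC 2 (0.106). Early over Hep had a log2 change of 2.18 ± 0.66 (SE) and an adjusted p of 0.224, so it did not pass.

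Around S100a11 the other marks changed place. Its start had H3K4me1 in both Hep libraries (361 and 485 bp at chr3:93520499-93521112) and in no other library over that region. Just upstream, chr3:93520260-93520463 had H3K4me1 of 70 bp in late 1, 199 bp in late 2 and 156 bp in BEC 2. An intergenic region 16868 bp downstream of the start, chr3:93537033-93537697, had no H3K27ac in Hep and between 178 and 598 bp in each of the 9 other libraries. A region 14125 bp upstream, chr3:93506090-93506653, had H3K27ac in intermediate 2 and in every late and BEC library. Over that upstream area Hep 1 had an H3K27me3 peak at chr3:93506410-93506688 and Hep 2 one at chr3:93506182-93506341, with none in the later stages. Over the S100a11 gene and 25000 bp on each side, H3K27me3 covered 0 bp in all 9 later libraries and 279 and 312 bp in Hep. The adjusted p-values against Hep were 0.121 in early, 0.0544 in late and 0.0623 in BEC (limma), so none passed. H3K27me3 could be tested over 5 of the 9 gene windows, and 0 were called in any contrast (limma). Over all windows 0.00994%, 1.05% and 0.964% were called lower in early, late and BEC over Hep, at an adjusted p under 0.05. At an unadjusted p under 0.05 (limma), 1 of the 5 was lower in each of these contrasts. That threshold is looser, so the 1 cannot be set against those shares. In late over early 0.278% of windows were called lower and none of these 5.

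**Figure D3:**
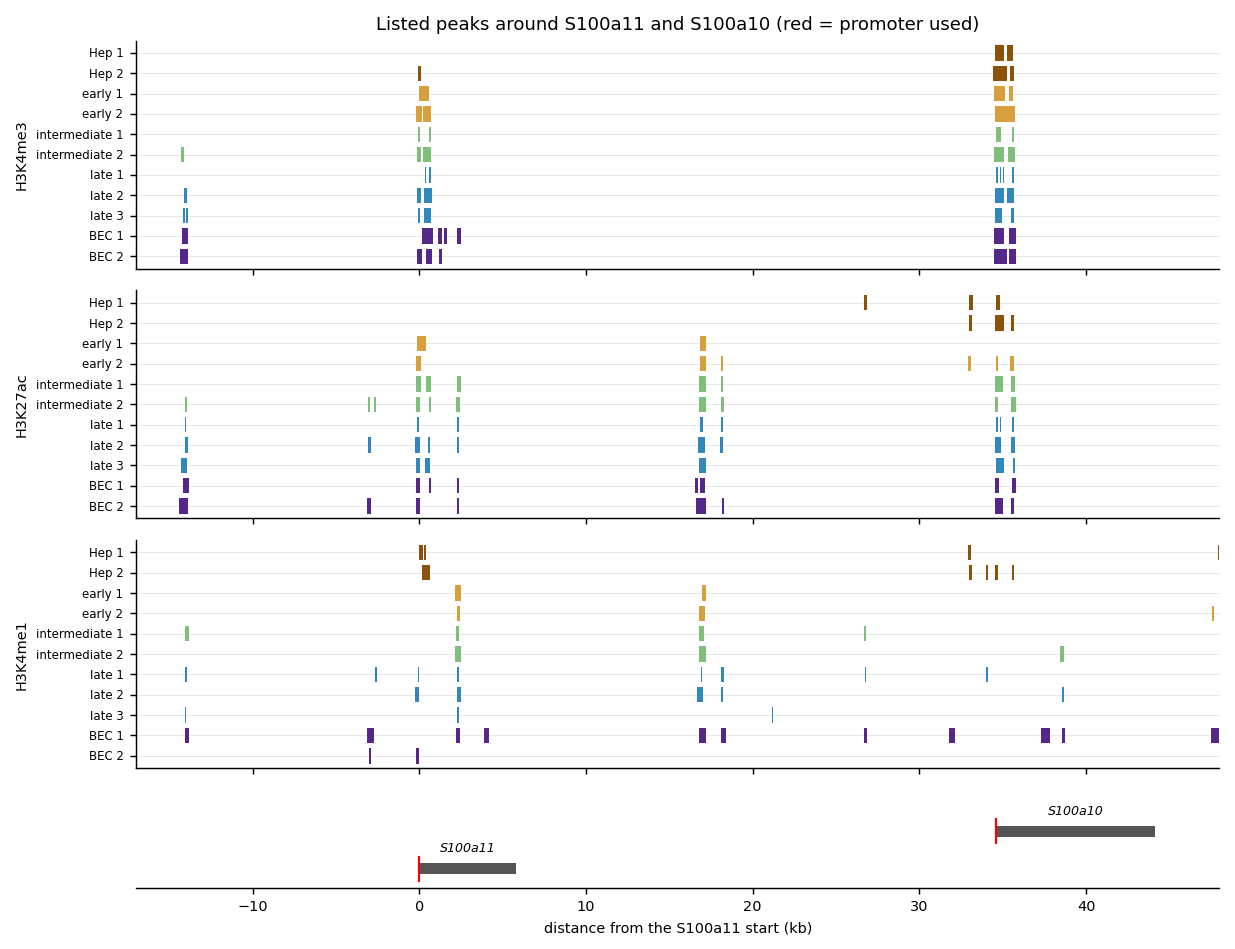
Listed H3K4me3, H3K27ac and H3K4me1 peaks in each library, to scale, against distance from the S100a11 start (x axis, kb), with genes in grey and promoters in red. The start and a region near 17 kb downstream carry H3K27ac in all 9 libraries after Hep and in neither Hep library, while S100a10 on the right carries H3K4me3 in all 11.

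S100a14 (a protein of surface and glandular epithelia) had H3K27ac in both libraries of a stage first in intermediate cells. Its H3K27ac covered 0 bp in both Hep libraries, 0 and 123 bp in early, 115 and 139 bp in intermediate, 191, 287 and 341 bp in late, and 411 and 998 bp in BEC. Early 1 was at 0 bp like Hep, and early 2 lay between the intermediate libraries. Every late library lay above every intermediate one, and both BEC libraries above every late one. The adjusted p was 0.0187 in late and 0.00413 in BEC, each against Hep (limma). The late call was 0.122 without Hep 1, 0.129 without Hep 2 and 0.0539 without late 3. H3K4me3 covered 185 and 420 bp in BEC, 53 bp in late 1 and 0 bp in the other 8 libraries. The adjusted p was 0.0131 for BEC over Hep (limma). S100a14 was tested for H3K4me3 and had its promoter set through these BEC and late 1 peaks, so that call is a description. That call was 0.109 without Hep 1, 0.0899 without Hep 2 and 0.156 without BEC 2. The region over its first base, chr3:90526155-90526925, had H3K27ac in every late and BEC library and in no other.

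S100a4 (also called fibroblast-specific protein or metastasin, which binds non-muscle myosin) had the TATA box shown above and no H3K4me3. Its H3K27ac covered 167 bp in intermediate 1, 56 and 120 bp in late 1 and late 3, and 208 bp in BEC 2, with 0 bp in the other 7 libraries. No stage had it in all of its libraries, and no contrast passed. H3K4me3 on the stellate and fibroblast marker list stood on 10% of its 10 promoters in Hep and early, 25% in intermediate, 23.3% in late and 15% in BEC. Over all genes the shares were 49.7% in Hep, 50.1% in early, 55.5% in intermediate, 54.8% in late and 54.2% in BEC. Within 2500 bp, H3K4me3 was at Reln in 10 libraries, Col1a1 in 7 and Lrat in 6. Col1a2, Col3a1, Dcn, Des, Pdgfrb, Lum and Acta2 had none in any library.

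None of the genes with H3K4me3 in all libraries passed in a contrast of H3K4me3 or H3K27ac. S100a1 (which regulates calcium handling in muscle) and S100a13 (which takes part in the release of Fgf1 and Il1a) had 1211 and 1289 bp of H3K4me3 in BEC and 1125 and 1490 bp in Hep. Their H3K27ac covered 736 and 844 bp in Hep, 456 and 0 bp in early, 467 and 165 bp in intermediate, 291, 209 and 479 bp in late, and 372 and 724 bp in BEC. All 9 later libraries lay below both Hep libraries, and the log2 change of early over Hep was -1.91 ± 0.73 (SE), with an adjusted p of 0.0771 (limma). The median over all promoters in that contrast was -0.92, so a lower value was the rule. S100a10 (the annexin A2 partner) had H3K4me3 of 1027 and 1169 bp in BEC and 899 and 1082 bp in Hep, and H3K27ac in 10 libraries, with none in early 1. S100a16, a broadly expressed member, had H3K4me3 between 250 and 1350 bp. S100a16 was the only 1 of the 9 with H3K27ac in all 11 libraries, against 23.9% of all promoters. Its log2 change of BEC over Hep was 0.62 ± 0.61 (SE) for H3K4me3 and 0.58 ± 0.56 for H3K27ac, with adjusted p of 1 and 0.446 (limma).

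Counted over contrasts, 8 of the 9 genes could be tested for H3K4me3, since S100a4 had no peak, and 9 for H3K27ac. The filter asks for a peak in 2 or more libraries, which S100a3 met through BEC alone and S100a14 through BEC and late 1, and these peaks also chose the promoter used. Both are in the count for BEC over Hep below, and S100a3 is the 1 called in BEC over late, so these counts are a description. For H3K4me3, 4 of 8 were higher in BEC than in Hep (9.12% of all promoters tested were called higher), 1 of 8 in late than in Hep (3.33%), 1 of 8 in late than in early (1.45%) and 1 of 8 in BEC than in late (0.653%). For H3K27ac, 3 of 9 were higher in early than in Hep (0.829%), 4 of 9 in late than in Hep (4.47%) and 4 of 9 in BEC than in Hep (6.22%). No S100 gene was called lower for either mark. Of all promoters, 24.4% in early, 19.2% in late and 14.6% in BEC were called lower than in Hep for H3K27ac, and 0.263%, 1.12% and 0.128% in intermediate over early, late over early and BEC over late. For H3K4me3 the shares called lower were 0.304% in early, 3.05% in late and 3.12% in BEC over Hep, and 0.193%, 1.48% and 0.0668% in intermediate over early, late over early and BEC over late. After quantile scaling the higher and lower calls for H3K27ac over all promoters were 108 and 21 in place of 104 and 3056 in early, 696 and 521 in place of 561 and 2407 in late, and 982 and 784 in place of 780 and 1829 in BEC. The S100 counts were then 3, 4 and 5 higher and 0 lower. For H3K4me3 the same scaling gave 824 and 702 in place of 1229 and 420 in BEC over Hep, where 2 S100 genes were then higher, and 124 and 107 in place of 88 and 9 in BEC over late.

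The median log2 change of the 9 genes in H3K27ac was 0 in early, 0.59 in late and 0.81 in BEC over Hep. In each contrast the middle gene was S100a4, which had 0 bp in both Hep libraries. Over all promoters tested the median was -0.92, -0.81 and -0.69. The late and BEC medians depend on the bases added: with 500 bp in place of 100 they were 0.15 and 0.39, against -0.44 and -0.39 over all promoters. For H3K4me3 the median of the 8 genes was 0 in early, -0.16 in late and 1.28 in BEC, and that of all promoters -0.06, -0.66 and 0.12. With 500 bp added the BEC median was 0.56, against 0.09 over all promoters. No call was made in early over Hep for H3K4me3 (0.349% higher over all promoters), where limma had 1 gene higher at an unadjusted p under 0.05. For intermediate over early the count was 0 in H3K4me3 (0.134%) with 1 higher unadjusted, and 0 in H3K27ac (4.18%), also with 1 higher. Late over intermediate gave 0 in both marks over all promoters and 0 S100 genes unadjusted (limma). Late over early and BEC over late gave 0 calls in H3K27ac (5.23% and 0.534%), with 2 and 1 genes higher unadjusted.

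**Figure D4:**
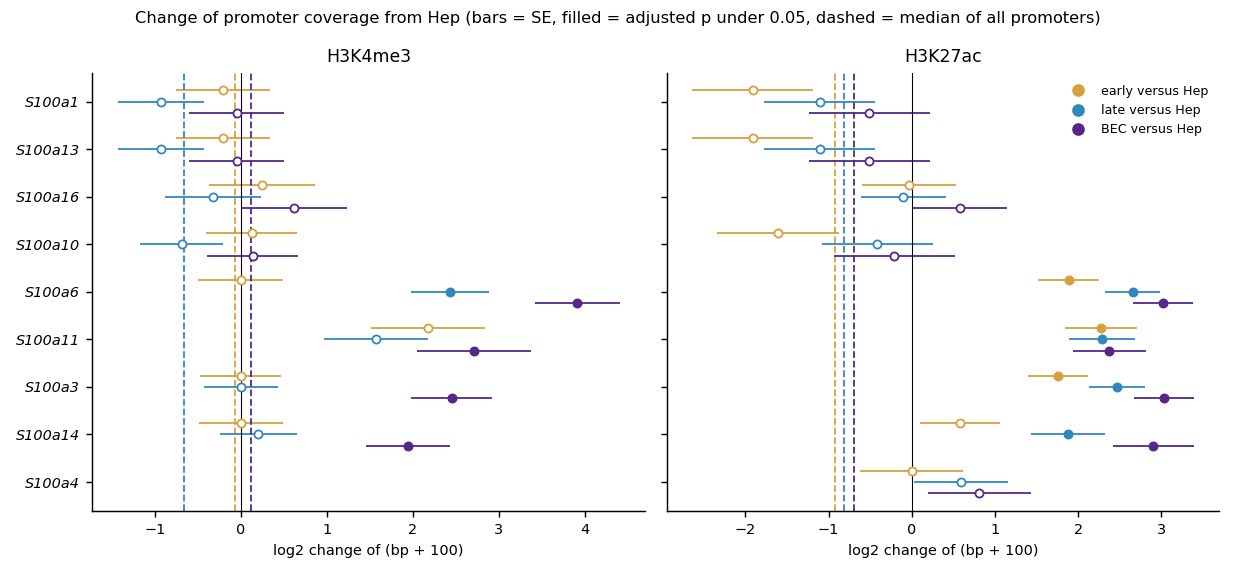
Log2 change of promoter coverage (x axis, bp plus 100, with SE) of each gene in early, late and BEC over Hep, for H3K4me3 (left) and H3K27ac (right). Filled symbols passed an adjusted p under 0.05, and dashed lines give the median of all promoters tested. S100a6, S100a11, S100a3 and S100a14 lie to the right of 0 in BEC for both marks, and values against an unmarked Hep depend on the 100 bp added.

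No peak in Hep and a peak in both early libraries was seen for H3K27ac at 107 of 21887 promoters (0.489%), and S100a3, S100a6 and S100a11 were among them. Neither mark in Hep and H3K27ac in both early libraries was seen at 70 promoters (0.320%). Of these 70, 38 had no H3K4me3 in either early library, and S100a3 and S100a6 were 2 of the 38. For H3K4me3 the matching early gain was seen at 235 promoters (1.07%) and at none of the 9 genes. As the maps show, the early peaks of S100a3 and S100a6 lie off the starts used.

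Beyond promoters, peaks of all libraries were joined into regions over the 9 genes and 25000 bp on each side. Of the 44 H3K27ac regions there, 13 (29.5%) were in every late and BEC library and in neither Hep library, and 2 (4.55%) were in both Hep libraries and in no late or BEC library. Over all chromosomes used, 6.85% of 106116 regions had that gain and 9.11% that loss. For H3K4me1 4 of 53 regions were gained and 4 lost (7.55% each), against 1.87% and 10.9% of all regions. For H3K4me3 1 of 23 was gained (4.35%), the S100a6 start, and none was lost, against 2.68% and 5.21% of all regions. H3K27me3 had 10 regions, each in 1 library. The 44 H3K27ac regions do not belong to 44 genes, since 28 of them (63.6%) fall in the windows of 2 or more of the 9 genes, and so no region is counted for 1 gene.

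In block 1 (153 kb) H3K27ac peaks numbered 7 in each Hep library, 7 to 11 in early, 14 to 18 in intermediate, 19 to 23 in late and 22 to 23 in BEC. In block 2 (94.2 kb) there were 4 to 5, 5 to 8, 11 to 13, 10 to 13 and 11. Peak numbers were higher in every intermediate, late and BEC library than in any Hep library, but covered bases were not. Block 1 had 2751 bp in intermediate 2 and 2811 bp in Hep 2, and block 2 had 1213 bp in late 1 and 1371 bp in Hep 2. The bases covered in block 1 were 6524 ± 1943 bp in BEC (SD, n = 2), 4047 ± 1027 bp in late (SD, n = 3) and 2594 ± 307 bp in Hep (SD, n = 2). The losses lay at chr3:90494076-90494456 near Snapin, which had H3K27ac in both Hep and both early libraries and in no other, and at chr3:93553442-93553686 before S100a10.

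H3K4me1 was read over each gene and 25000 bp on each side, where 1 peak can count for several of these genes. No window was called in early over Hep. There 4 of 9, whose windows overlap one another, were lower at an unadjusted p under 0.05 (limma). The median log2 change over all windows in that contrast was -0.92, so a lower value was the rule. The windows of S100a1, S100a13 and S100a14 were lower in late than in Hep (adjusted p of 0.0240, 0.0225 and 0.0479, limma). These were 3 of 9 against 30.5% of all windows called lower, and these windows overlap one another. Within 2500 bp of the S100a14 promoter itself H3K4me1 went the other way. It covered 0 bp in both Hep libraries, 119, 130 and 80 bp in late, and 562 and 285 bp in BEC. S100a1 averaged 522 ± 59.7 bp in late (SD, n = 3) and 2773 ± 159 bp in Hep (SD, n = 2). The window of S100a4 was higher in BEC, with 2160 and 599 bp, than in Hep, with 0 bp in both (adjusted p 0.0419, limma). In that contrast 0.264% of windows were called higher and 8.03% lower. Within 2500 bp of the S100a4 promoter no library had H3K4me1, so these peaks lay elsewhere in the window. After quantile scaling these 3 losses were not called, and S100a3, S100a4, S100a6 and S100a11 were called higher in both late and BEC than in Hep, so which windows were called depended on scaling. The H3K4me1 calls were also lost without single libraries, for S100a1 at 0.105 without Hep 1, 0.203 without Hep 2, 0.0817 without late 1 and 0.088 without late 3.

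Among the other S100 genes, S100a5, S100a7a, S100a7l2, S100a8, S100a9 and S100z had no H3K4me3 or H3K27ac within 2500 bp in any library. S100g had H3K27ac in 1 library and no H3K4me3. S100b, on chromosome 10, had each mark in 4 libraries. It did not pass in BEC over Hep, with an adjusted p of 0.456 for H3K4me3 and 0.0615 for H3K27ac (limma). S100a2, whose gene end was chosen by H3K27ac, has a window that takes in a region inside S100a3. It averaged 171 ± 11 bp of H3K27ac in BEC (SD, n = 2), 210 ± 100 bp in late (SD, n = 3) and 0 bp in Hep.

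The 22 genes listed as S100 partners, such as annexins, receptors and cargo, were read in the same way. For H3K27ac 18 were tested, with 1 higher and 0 lower in early, 6 higher and 1 lower in late, and 5 higher and 2 lower in BEC, each against Hep. For H3K4me3 17 were tested, with 1 higher and 0 lower in early, 2 higher and 1 lower in late, and 6 higher and 1 lower in BEC. Over all promoters the H3K27ac shares were 0.829% higher and 24.4% lower in early, 4.47% and 19.2% in late, and 6.22% and 14.6% in BEC. For H3K4me3 they were 0.349% and 0.304% in early, 3.33% and 3.05% in late, and 9.12% and 3.12% in BEC. Anxa1 and Tlr4 entered the H3K4me3 test through their peaks in the BEC libraries alone, so their 2 calls are a description. Anxa1 entered the H3K27ac test in the same way, so its call among the 5 higher in BEC is also a description. Anxa2, which forms a tetramer with S100a10, had no peak of either mark in Hep and averaged 885 ± 467 bp of H3K4me3 in early and 1346 ± 95 bp in BEC (SD, n = 2 each). Its adjusted p against Hep was 0.0155 in early and 0.000506 in BEC for H3K4me3, and 0.00388 in early for H3K27ac (limma). S100a10 itself had H3K4me3 in all stages, so of this pair only the annexin was called. Anxa1, the partner of S100a11, had 1087 ± 37 bp of H3K4me3 in BEC (SD, n = 2) and 0 bp in all late and all Hep libraries.

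Plat and Plg, the activator and the zymogen that the S100a10 and annexin A2 complex brings together on cell surfaces, went opposite ways. Plat had 801 ± 247 bp of H3K4me3 in BEC and 0 bp in Hep (SD, n = 2 each, adjusted p 0.00270, limma). For H3K27ac Plat was called higher in late than in Hep (adjusted p 0.0219, limma) but not in BEC (0.202). Plg, a hepatocyte product, had 0 bp of H3K4me3 in BEC and 1316 ± 206 bp in Hep (SD, n = 2 each, adjusted p 0.000281, limma). Tlr4, a receptor for released S100a8 and S100a9, had 965 ± 79 bp of H3K4me3 in BEC and 0 bp in all other libraries (SD, n = 2). Its H3K27ac was not limited to BEC. That mark was seen in 7 libraries and called higher in both late and BEC than in Hep (adjusted p 0.00714 and 0.00257, limma). Ahnak, a scaffold bound by S100a10, had 1440 ± 73 bp of H3K4me3 in BEC and 393 ± 154 bp in Hep (SD, n = 2 each, log2 change 1.68 ± 0.51 SE, adjusted p 0.0388, limma).

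The promoters whose course over the 11 libraries was closest to the mean of the S100 genes were found by Pearson correlation of log2 coverage, as a description in which all points share libraries and peak lengths. For H3K4me3 these were Sfn (r = 0.966), Naa80, Lurap1, Endod1 and Tstd1. Sfn, which encodes the epithelial protein stratifin, covered 1752 and 2073 bp in BEC and 319 and 380 bp in Hep. For H3K27ac they were Hsh2d (r = 0.973), 4930432M17Rik, 1700042G07Rik, Oas3 and Gab2. Gab2, a docking adaptor of receptor signalling, covered 550 and 994 bp in BEC and 0 bp in all Hep and early libraries.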

How the data were processed

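The measurements were peak lists of 44 libraries, 11 for each of 4 histone marks, at 5 stages with 2 or 3 libraries per stage. The build mm10 and the tools Bowtie2, MACS2, Picard and deepTools are named in the submitters' processing notes. Their versions, settings and peak filter are not stated there. Peak starts and ends, in bases, are as deposited by the authors. Each peak also has a score deposited by the authors, of undefined meaning, used only to keep the highest-ranked peaks in 1 alternative. Only peaks on the 19 autosomes and on X and Y were used.

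Promoters were RefSeq starts (17492 of 21887 genes, and where a gene had several the one with most H3K4me3 within 1000 bp), otherwise the gene end with more H3K4me3 (2792), H3K27ac (228) or H3K4me1 (242), and for 1133 genes the gene start. Coverage within 2500 bp plus 100 bp (H3K4me3, H3K27ac), or over the gene and 25000 bp on each side plus 500 bp (H3K4me1, H3K27me3), was taken as log2. It was fitted with limma 3.58.1 (lmFit, eBayes; R 4.3.3) over all 11 libraries of a mark, for features with a peak in 2 or more libraries, in 7 contrasts. P-values were adjusted by Benjamini-Hochberg within a contrast over all features, and 0.05 was the threshold. The fit was tested on simulated data. All 9 genes are named, other genes by list and rule: the other S100 genes, 22 partners, marker lists of 7 cell types, and the 5 promoters most like the S100 mean per mark. The genes and lists were chosen with earlier results of these data known.

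Libraries were normalized in no other way, and their peak length affects coverage. Deviations from the stage mean had a median correlation of -0.016 to 0.015 by mark between same-numbered libraries. For H3K4me3, 3 of 20 same-numbered pairs were over 0.1, and 0 of 28 others. For H3K27ac, H3K4me1 and H3K27me3 these were 0, 5 and 3 of 20, and 0, 9 and 7 of 28. This cannot settle whether numbers pair the libraries, and the main fit had no pairing. Alternatives were other added constants, windows, fixed peak lengths of 500 bp, equal peak numbers, quantile scaling, no filter, other promoter placement, leaving out short-peak libraries or each library, and a replicate block.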

Additional observations from a re-analysis of the deposited data

How the results depend on the processing

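Counts are of S100 genes called, tested stage over its comparison. Read depth is unknown, short peaks of late 1 lower its coverage, and groups of 2 or 3 libraries limit what can pass. Of 7 H3K4me3 gene calls, 124 of 151 refits passed in the same direction and 27 did not pass. For 11 H3K27ac calls these were 219 of 242 and 23, and for 4 H3K4me1 calls 27 of 72 and 45, and none changed sign. In all 22 alternatives S100a6 held in BEC over Hep for both marks, as did S100a3 and S100a14 for H3K27ac. No cause of a change below was tested.

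For H3K4me3, adding 500 bp gave 0 in late over early, 0 in late over Hep and 0 in BEC over late, and adding 10 bp gave 1 in intermediate over early. Peaks resized to 500 bp gave 2, both lower, in early over Hep, 3 in intermediate over early, 3 in late over early, and 3 in BEC over late, 2 of them lower. Equal peak numbers gave 0 in late over early, 0 in late over Hep, 0 in BEC over late and 1 in BEC over Hep. Quantile scaling gave 1 in early over Hep, 1 in intermediate over early, 2 in late over Hep and 2 in BEC over Hep. Without short-peak libraries there was 1 in intermediate over early and 2 in BEC over late.

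For H3K27ac, a window of 1000 bp gave 1 in early over Hep, 1 in intermediate over early, 1 in late over early and 2 in late over Hep. Adding 500 bp gave 5 in early over Hep, 2 of them lower, and equal peak numbers gave 1 in early and 2 in late over Hep. Resized peaks gave 3 in intermediate and 3 in late over early. Giving each peak to its nearest promoter gave 1 in intermediate over early. Over all promoters quantile scaling turned 524 higher and 33 lower into 39 and 64 in intermediate over early, 656 and 140 into 271 and 335 in late over early, and 67 and 16 into 107 and 80 in BEC over late, and for H3K4me3 18 and 26 into 203 and 170 in intermediate over early.

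For H3K4me1, late over Hep and BEC over Hep both fell to 0 with 100 bp added, resized peaks or no short-peak libraries, and BEC over Hep to 0 with no filter. Quantile scaling gave 4, all higher, in late and in BEC over Hep and 1 in late over early. Over all windows it turned 22 higher and 5539 lower into 1041 and 603 in late over Hep, and 48 and 1459 into 1330 and 940 in BEC over Hep. For H3K27me3, S100a11 was lower (1 call) in early, late and BEC over Hep with resized peaks or no filter, and in BEC over Hep with 100 bp added.

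With each library left out in turn, H3K4me3 counts ran from 0 to 1 in intermediate over early and late over early, 0 to 2 in late over Hep and BEC over late, and 2 to 4 in BEC over Hep. H3K27ac counts ran from 0 (without Hep 1 or Hep 2) to 5 (without early 1, 2 of them lower) in early over Hep, 0 to 1 in intermediate over early, 0 to 2 in late over early, 2 to 4 in late over Hep and 3 to 4 in BEC over Hep. H3K4me1 counts ran from 0 to 4 in early over Hep, 0 to 6 in late over Hep and 0 to 2 in BEC over Hep, and H3K27me3 counts from 0 to 1 in early, late and BEC over Hep. Over all promoters, calls in BEC over Hep ran from 516 to 2028 for H3K4me3 and 770 to 3877 for H3K27ac over all alternatives.

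Whether replicate numbers pair the libraries is not known. With the replicate block, H3K4me3 had 1 call in early over Hep (S100a11) and 1 in intermediate over early (S100a6), and H3K4me1 had 0 in late and 0 in BEC over Hep. For H3K27ac in late over Hep, S100a14 had an adjusted p of 0.0547 under the block (limma).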
